A study of Caenorhabditis elegans with 21 samples.

Results

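The superoxide dismutases, catalases and peroxiredoxins examined here are the worm's best-known enzymes against superoxide and hydrogen peroxide. A list of 10 genes (sod-1, sod-2, sod-3, sod-4, sod-5, ctl-1, ctl-2, ctl-3, prdx-2 and prdx-3) was looked up by name among the 33886 loci of the deposited count table, 33586 of which carry a gene name. They fell into 9 loci, since ctl-1 and ctl-2 share 1 locus, and all 9 were among the 12091 loci that passed the filter on low counts. For sod-5 this held only through the genotypes in which it was high.

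Superoxide dismutases turn superoxide into hydrogen peroxide, and catalases and peroxiredoxins break hydrogen peroxide down. In Caenorhabditis elegans the manganese enzymes SOD-2 and SOD-3 act in mitochondria, the copper/zinc enzymes SOD-1 and SOD-5 in the cytosol, and SOD-4 is a copper/zinc enzyme of the cell surface and extracellular space. CTL-2 is the peroxisomal catalase and CTL-1 a cytosolic one. PRDX-2 is a cytosolic and PRDX-3 a mitochondrial peroxiredoxin. The insulin/IGF-1-like receptor DAF-2 holds the forkhead transcription factor DAF-16 out of the nucleus, and sod-3 is the most widely used reporter of DAF-16 activity.

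Whole adult animals at day 1 of adulthood gave 3 poly(A) RNA libraries for each of 7 genotypes, to ask which isoforms of daf-16 act on gene expression in long-lived daf-2 animals. The genotypes were daf-16(mu86);daf-2(e1370), daf-16(mg54);daf-2(e1370), daf-16(tm5030);daf-2(e1370), daf-16(tm5032);daf-2(e1370), daf-16(tm6659);daf-2(e1370), daf-2(e1370) with wild-type daf-16, and N2 wild-type. The 5 daf-16 mutants are named below by their daf-16 allele alone. They and daf-2 share e1370, a mutation that reduces receptor function, and N2 does not carry it. The series lists a null mutation, a mutation of the a and f isoforms, independent mutations of the a isoform and a mutation of the f isoform. These are taken here, from what is known of the alleles, as mu86, mg54, tm5030 with tm5032, and tm6659. Animals were kept at 15 °C up to the L4 larval stage and then at 20 °C for 20 to 24 hours. In whole animals, fewer cells of a type and less RNA per cell cannot be told apart. The labels do not say whether the libraries of a genotype came from separate cultures, so p-values measure the spread between these libraries.

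The libraries held 30384772 to 47170645 fragments. The daf-16 locus, the target of the mutations, ranged over 145 to 167 CPM (counts scaled to library size) in the libraries labelled mu86, 94.0 to 94.4 CPM in mg54, 135 to 156 CPM in tm5030, 157 to 181 CPM in tm5032, 49.02 to 70.1 CPM in tm6659, 142 to 175 CPM in daf-2 and 182 to 192 CPM in N2. It was thus lower than in daf-2 in mg54 and tm6659 without overlap, and not in the other 3 mutants. A count over the whole locus checks neither the mu86 lesion nor its label, so mu86 below means the libraries so labelled. Summed sperm markers (16 loci) ranged over 531 to 921 CPM in daf-2 and 306 to 572 CPM in N2, summed oocyte markers (8 loci) over 5583 to 6770 CPM in daf-2 and 6966 to 8237 CPM in N2, and early embryo markers (9 loci) over 0.524 to 0.843 CPM in daf-2 and 1.89 to 4.17 CPM in N2, with 3 or 4 of the 9 at 0 in each daf-2 library and 3 in each N2 library. The pharynx markers (3 loci), myo-1, myo-2 and tnc-2, ranged over 43.8 to 56.4 CPM in mu86, 26.8 to 70.0 CPM in mg54, 20.2 to 56.4 CPM in tm5030, 10.8 to 58.4 CPM in tm5032, 12.9 to 21.6 CPM in tm6659, 6.16 to 19.9 CPM in daf-2 and 12.1 to 46.1 CPM in N2. The intestine markers (6 loci) ranged over 2098 to 3346 CPM in mu86, 2313 to 3670 CPM in mg54, 2242 to 3106 CPM in tm5030, 2124 to 2675 CPM in tm5032, 1751 to 2081 CPM in tm6659, 1801 to 2086 CPM in daf-2 and 1679 to 2350 CPM in N2. The neuron markers (6 loci) ranged over 252 to 271 CPM in mu86 and 265 to 296 CPM in daf-2. The part of these differences in the results below was not tested.

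The members differed in level by several orders of magnitude. Per transcript length, in fragments per kilobase scaled for the library (FPKM) and averaged over the 3 daf-2 libraries, prdx-2 stood at 945 ± 210, the prdx-3 locus at 706 ± 190, the sod-1 locus at 504 ± 157 and sod-2 at 260 ± 72.5 (SD, n = 3). Next came the ctl-1/ctl-2 locus at 58.3 ± 20.9 FPKM, sod-3 at 52.9 ± 12.3 FPKM, sod-4 at 12.3 ± 3.09 FPKM, ctl-3 at 7.25 ± 2.59 FPKM and sod-5 at 0.452 ± 0.247 FPKM. In this order the ranges over the daf-2 libraries of prdx-2 and prdx-3, of prdx-3 and sod-1, of ctl-1/ctl-2 and sod-3, and of sod-4 and ctl-3 overlapped, and those of the other neighbours did not. Within each daf-2 library the order was the same, other than in replicate 3. There sod-3 (62.3 FPKM) exceeded ctl-1/ctl-2 (47.8 FPKM). The 4 most abundant loci include cytosolic and mitochondrial enzymes, and sod-3, the gene with the widest swing between genotypes, stood among the members of middle level. The sod-1 locus also holds art-1, C15F1.5 and 21ur-14704, and the prdx-3 locus also holds R07E5.1, R07E5.13, rnp-4 and snfc-5, so neither value can be assigned to 1 gene. Counts of sod-2, sod-3 and ctl-1/ctl-2 carried fractions in all 21 libraries, as happens when a fragment is divided among transcripts or positions. Fractions also occurred in 20 libraries at the prdx-3 locus, 10 at sod-4 and 1 at the sod-1 locus, and in 0 at sod-5, ctl-3 and prdx-2. Their source was not examined, so any split of fragments between similar sequences remains uncertain.

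Between genotypes, 5 of the 8 loci other than sod-5 (sod-1, sod-2, sod-3, ctl-1/ctl-2 and ctl-3) were called higher in daf-2 against N2 and none lower, where 10.9% of all genes tested were called higher and 16.7% were called in either direction. A call means an adjusted p under 0.05 in edgeR's quasi-likelihood test. The same 5 loci were called lower in mu86 than in daf-2, where 6.16% of all genes were called lower and 10.3% were called in either direction. They were also called lower in mg54 than in daf-2, against 5.57% of all genes. Counting sod-5, which passed the filter on low counts through its high genotypes and is described apart, the calls were 6 of 9, 6 of 9 and 5 of 9 in this order. The mean of the tm5030 and tm5032 mutants, called the daf-16a mutants below, had 2 of the 8 loci called lower than in daf-2 (sod-1 and sod-3), against 1.09% of all genes. In tm6659, 0 loci were called against daf-2, where 0.174% of all genes were. An unadjusted p under 0.05 was met there by 3 of the 8 loci (sod-1, sod-2 and ctl-3), a threshold whose share over all genes was not counted. DESeq2 and limma-voom each called 1 (ctl-3), where DESeq2 called 59 of 12091 genes. The median log2 fold change of the 8 loci was 0.32 in daf-2 against N2, -0.44 in mu86, -0.37 in mg54, -0.07 in the daf-16a mutants and -0.04 in tm6659 against daf-2, beside 0.08, -0.01, -0.01, -0.03 and -0.03 over all genes. These comparisons share the daf-2 libraries, so their values are not independent of each other.

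**Figure D1:**
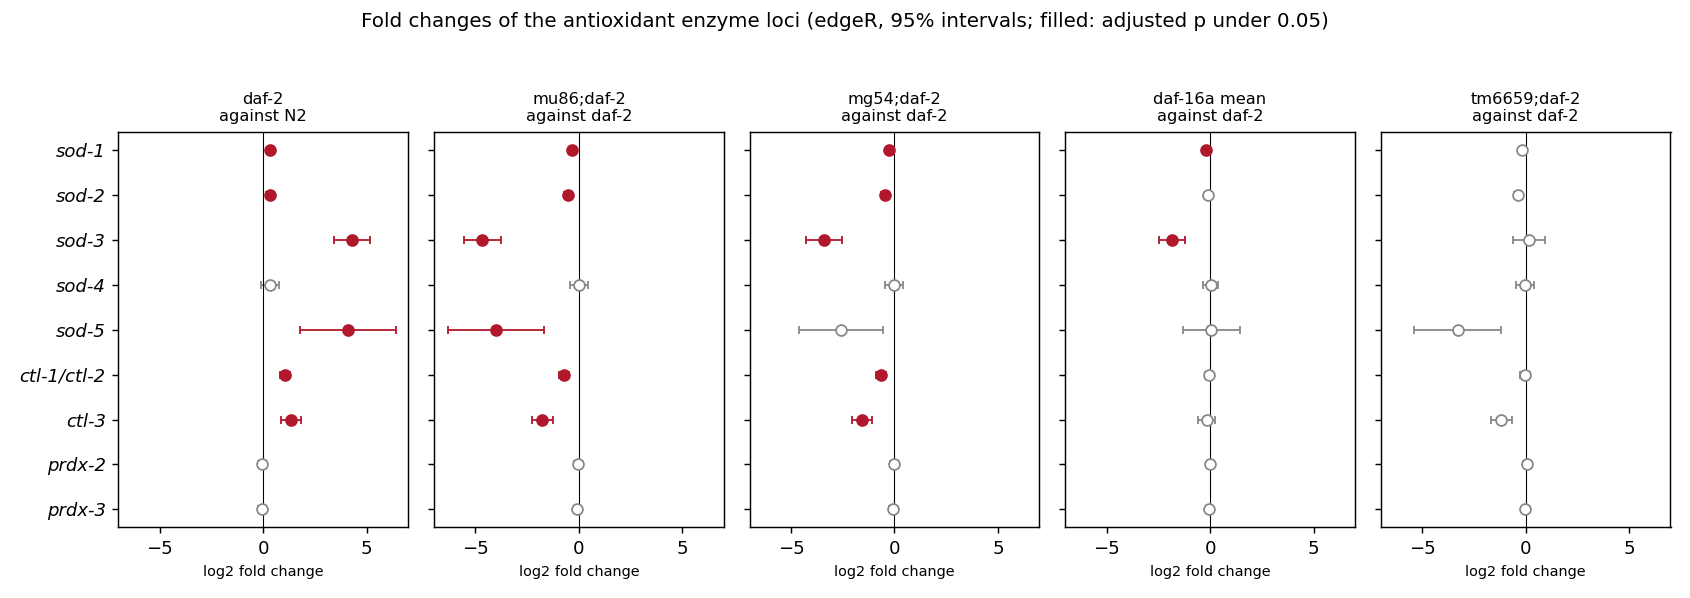
Log2 fold change of each locus in 5 comparisons, with 95% intervals from edgeR over 21 libraries. Filled points are calls (adjusted p under 0.05). The sod-3 value is 4.28 in daf-2 against N2, -4.66 in mu86, -3.40 in mg54, -1.82 in the daf-16a mutants and 0.16 in tm6659 against daf-2, while prdx-2 and prdx-3 lie near 0 in every panel.

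A model with the replicate number as a block was also fitted, because libraries that share a number deviated together from their genotype means in every comparison other than daf-2 against N2 and mu86 against daf-2. Its calls are given below where they differ. In that model 0.703% of all genes were called in tm6659 against daf-2, 7.86% in the daf-16a mutants against tm6659, 0.0827% in mg54 against mu86, 48.2% in mu86 against N2 and 1.27% in the test of additivity. On log2(FPKM + 1) with limma, sod-3 kept its 5 calls and ctl-3 its call in mu86, and the calls of the other loci were lost. There the values of sod-1 (-0.28) and sod-2 (-0.32) in daf-2 against N2 turned negative, in a fit in which the median of all genes was -0.37.

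The manganese superoxide dismutase sod-3 (chromosome X, 17092753 to 17094306, plus strand, in the WBcel235 annotation of Ensembl release 115, since the build of the files is not given) had the largest called changes of the members. It had 1.21, 1.38 and 2.50 CPM in the mu86 libraries, 3.59, 3.61 and 4.93 CPM in mg54, 9.72, 8.66 and 19.2 CPM in tm5030, and 9.84, 7.22 and 18.0 CPM in tm5032. The tm6659 libraries had 38.9, 45.4 and 59.02 CPM, the daf-2 libraries 39.3, 34.4 and 54.9 CPM, and the N2 libraries 1.97, 1.72 and 2.90 CPM. The libraries thus fell into 4 levels. The tm6659 and daf-2 libraries overlapped at the top, both daf-16a mutants lay below them without overlap, mg54 lay below the daf-16a mutants, and mu86 and N2 overlapped at the bottom.

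Against N2, sod-3 rose in daf-2 by 4.28 ± 0.42 on the log2 scale (SE, adjusted p = 3.1e-06), 19.5-fold. Against daf-2 it fell by 4.66 ± 0.43 in mu86 (adjusted p = 1.77e-06), by 3.40 ± 0.40 in mg54 (adjusted p = 2.71e-05) and by 1.82 ± 0.30 in the daf-16a mutants (adjusted p = 0.00302). The mean level was 3.96% of the daf-2 mean in mu86, 9.43% in mg54, 29.2% in tm5030 and 27.3% in tm5032. The tm6659 mean was 111% of it, with a log2 fold change of 0.16 (95% interval -0.61 to 0.92, adjusted p = 1). The difference itself, the daf-16a mutants against tm6659, was -1.98 ± 0.30 (adjusted p = 0.0012), with all 6 libraries of the daf-16a mutants lower. The calls in the daf-16a mutants did not hold without the libraries numbered 2 (-1.71 against daf-2, adjusted p = 0.113, and -1.78 against tm6659, adjusted p = 0.0776), nor that against daf-2 in a fit of these genotypes alone (-1.78, adjusted p = 0.0748).

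The mg54 libraries, with a mutation of both isoforms, all had less sod-3 than any library of the single-isoform mutants. The log2 change in mg54 differed from the sum of the changes in the daf-16a mutants and tm6659 by -1.74 ± 0.49 (adjusted p = 0.248). In this test of additivity 0 of the 9 loci were called by edgeR, where 0.438% of all genes were, 2 had an unadjusted p under 0.05 (sod-3 and ctl-1/ctl-2), and DESeq2 called 1 (sod-3, adjusted p = 0.0256) and limma-voom 0. With the replicate block the sod-3 value was -1.68 ± 0.21 (adjusted p = 0.000373), the sole call among the 9 loci. Between the mutants with the lowest levels, sod-3 was at 4.04 ± 0.77 CPM in mg54 and 1.70 ± 0.70 CPM in mu86 (SD, n = 3 each). All 3 mg54 libraries were higher, with a log2 fold change of 1.26 ± 0.39 (adjusted p = 1). None of the 9 loci was called in that comparison by edgeR, DESeq2 or limma-voom, where edgeR called 0.0331% of all genes. An unadjusted p under 0.05 was met by 1 (sod-3), again without a count over all genes at that threshold. With the replicate block sod-3 was called (1.30 ± 0.17, adjusted p = 0.00506).

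Within the genotypes, the library numbered 3 had the most sod-3 in all 7. The same number had the highest summed sperm, intestine and hypodermis markers in all 7 genotypes. For hypodermis this did not hold in mean log2 CPM. There library 2 exceeded library 3 in N2 (3.44 and 3.27) and in tm6659 (4.45 and 4.05). Between genotypes, the 4 mutants with less sod-3 than daf-2 (mu86, mg54, tm5030 and tm5032) also had higher summed intestine markers than daf-2 without overlap, while tm6659 overlapped daf-2 in both. The separation from daf-2 did not hold in mean log2 CPM of the intestine markers, where all 4 mutants overlapped daf-2. In that measure the daf-2 libraries ranged over 7.01 to 7.36 and the mu86 libraries over 6.81 to 7.47. The part of the marker differences, within or between genotypes, in the sod-3 values was not tested.

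**Figure D2:**
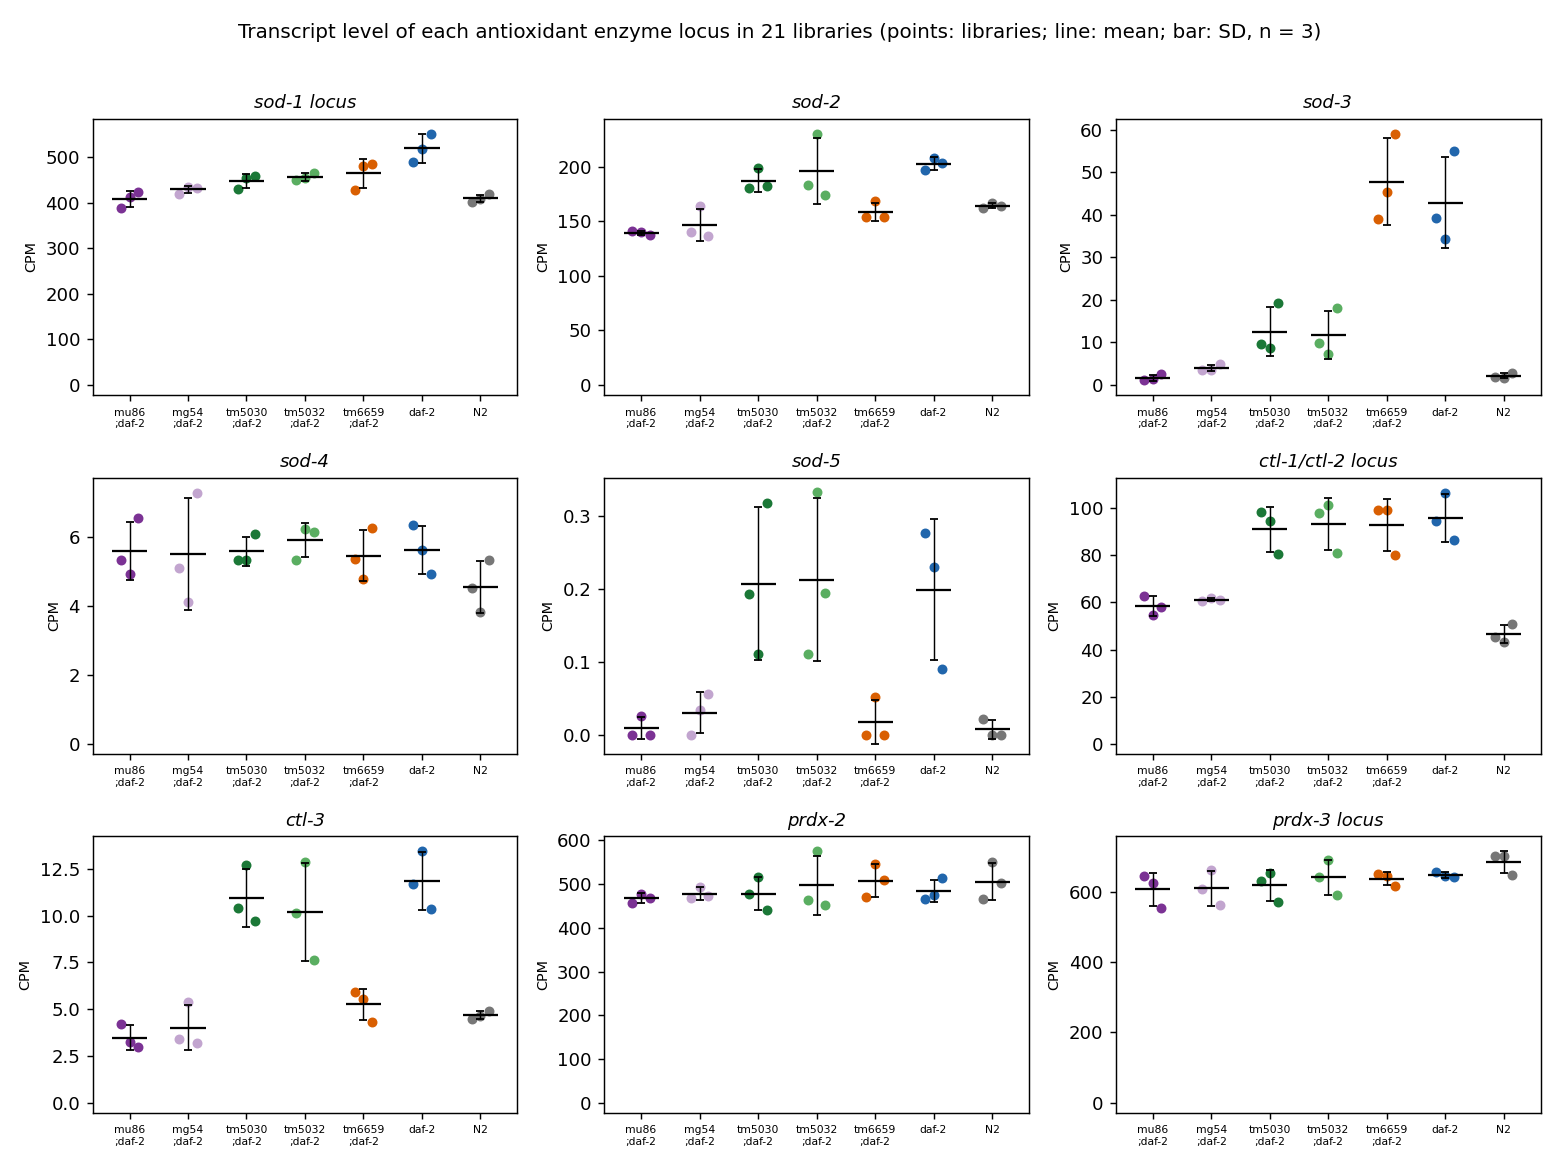
TMM-scaled CPM (linear axes) of each of the 9 loci in every library, by genotype. Points are libraries, lines means and bars SD (n = 3). The sod-3 panel shows 4 levels, with tm6659 and daf-2 at the top, and in the ctl-3 panel tm6659 overlaps mg54 and N2 and lies below daf-2 and both daf-16a mutants.

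The other manganese enzyme, sod-2 (chromosome I, 8434550 to 8435807, plus strand), moved less and in another order. It had 141, 140 and 137 CPM in mu86, 140, 164 and 137 CPM in mg54, 181, 199 and 183 CPM in tm5030, and 184, 230 and 174 CPM in tm5032. The tm6659 libraries had 154, 169 and 154 CPM, the daf-2 libraries 197, 209 and 203 CPM, and the N2 libraries 162, 167 and 164 CPM. The daf-2 libraries overlapped those of the daf-16a mutants, while the tm6659 libraries lay below both and overlapped N2 and mg54.

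Against daf-2, sod-2 fell by 0.54 ± 0.09 on the log2 scale in mu86 (adjusted p = 0.000547) and by 0.47 ± 0.09 in mg54 (adjusted p = 0.00221). In the daf-16a mutants the log2 fold change was -0.08 (95% interval -0.24 to 0.08, adjusted p = 0.966). In tm6659 it was -0.35 ± 0.09 (adjusted p = 0.214), with all 3 libraries below those of daf-2, and with the replicate block it was called at the same size (adjusted p = 0.0119). The daf-16a mutants exceeded tm6659 by 0.27 ± 0.08 (adjusted p = 0.0803, and 0.00553 with the replicate block). Against N2, sod-2 rose in daf-2 by 0.30 ± 0.09 (adjusted p = 0.025). That call was lost when any 1 of the 6 libraries was left out (adjusted p from 0.107 to 0.171) and under relative log expression scaling (0.22, adjusted p = 0.138).

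The sod-1 locus, which includes the cytosolic copper/zinc enzyme (sod-1 itself on chromosome II, 6972706 to 6973887, minus strand), had 389, 413 and 423 CPM in mu86, 420, 435 and 433 CPM in mg54, 428, 481 and 484 CPM in tm6659, 489, 519 and 552 CPM in daf-2, and 403, 408 and 419 CPM in N2. The tm5030 libraries had 431, 455 and 460 CPM and the tm5032 libraries 450, 453 and 466 CPM. Every daf-2 library was above every library of the other 6 genotypes. The locus rose in daf-2 by 0.34 ± 0.06 against N2 (adjusted p = 0.00049) and fell by 0.35 ± 0.06 in mu86 (adjusted p = 0.000576), by 0.27 ± 0.06 in mg54 (adjusted p = 0.0047) and by 0.20 ± 0.05 in the daf-16a mutants (adjusted p = 0.0468) against daf-2. The call in the daf-16a mutants was lost when any 1 of the 9 libraries was left out, and that in mg54 without daf-2 replicate 3 (adjusted p = 0.0787) or mg54 replicate 1 (adjusted p = 0.0591). In tm6659 the log2 fold change was -0.16 (95% interval -0.28 to -0.04, adjusted p = 0.854).

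The extracellular copper/zinc enzyme sod-4 (chromosome III, 9496884 to 9500375, minus strand) was called in none of the 10 comparisons. Its means were 5.59 ± 0.85 CPM in mu86, 5.49 ± 1.62 CPM in mg54, 5.57 ± 0.43 CPM in tm5030, 5.90 ± 0.49 CPM in tm5032, 5.45 ± 0.75 CPM in tm6659, 5.61 ± 0.71 CPM in daf-2 and 4.55 ± 0.75 CPM in N2 (SD, n = 3 each). The libraries of the 6 genotypes with e1370 overlapped, and those of N2 overlapped these other than tm5030 and tm5032, which lay just above. In daf-2 against N2 the log2 fold change was 0.30 (95% interval -0.13 to 0.74, adjusted p = 0.301).

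The cytosolic copper/zinc enzyme sod-5 (chromosome II, 4417633 to 4419130, plus strand) was at the edge of detection, with 74 fragments over the 21 libraries. The libraries held 0, 1 and 0 fragments in mu86, 0, 1 and 2 in mg54, 7, 4 and 12 in tm5030, 5, 11 and 8 in tm5032, 0, 2 and 0 in tm6659, 10, 7 and 3 in daf-2, and 1, 0 and 0 in N2. The gene passed the filter on low counts through the genotypes in which it was high. The genotypes fell into a group with fragments in each library (daf-2, tm5030 and tm5032) and a group with at most 2 in any library.

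The summed sod-5 fragments, scaled for library size, gave ratios of 23.2 in daf-2 to N2 (95% counting interval 3.70 to 960), 0.0461 in mu86 to daf-2 (0.00111 to 0.288) and 0.155 in mg54 to daf-2 (0.0295 to 0.522). The daf-16a mutants together stood at 1.02 of daf-2 (0.595 to 1.82) and tm6659 at 0.0861 of daf-2 (0.00976 to 0.355). These intervals cover counting error only. Because the filter on low counts admitted sod-5 through its high genotypes, its calls are not independent of that filter. With no filter, edgeR's adjusted p was 0.0247 in daf-2 against N2 and 0.0419 in mu86 against daf-2, and 0.181 in mg54 and 0.821 in tm6659 against daf-2. With the filter, the call against N2 (adjusted p = 0.0159) was lost without N2 replicate 2, N2 replicate 3 or daf-2 replicate 1 (adjusted p from 0.0582 to 0.0697), and that in mu86 (adjusted p = 0.0267) without daf-2 replicate 1, daf-2 replicate 2, mu86 replicate 1 or mu86 replicate 3 (adjusted p from 0.0686 to 0.106). The daf-16a mutants against tm6659 gave 3.35 ± 0.92 for sod-5 on the log2 scale. By edgeR this was not called with the filter (adjusted p = 0.0688) or without it (adjusted p = 0.112). With the filter, the replicate block (adjusted p = 0.0293) and limma-voom (adjusted p = 0.0307) called it. Without any 1 of the 9 libraries, edgeR did not call it (adjusted p from 0.0592 to 0.306).

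The 3 catalase genes lie in a row on the minus strand of chromosome II, ctl-2 at 14299556 to 14302027, ctl-1 at 14303568 to 14306260 and ctl-3 at 14307798 to 14310779. Counts of the ctl-1/ctl-2 locus carried fractions in all 21 libraries and those of ctl-3 in none. The merged locus of ctl-1, the cytosolic catalase, and ctl-2, the peroxisomal one, had 62.9, 54.6 and 58.0 CPM in mu86, 60.5, 61.9 and 61.2 CPM in mg54, 98.5, 94.4 and 80.3 CPM in tm5030, and 98.0, 101 and 80.8 CPM in tm5032. The tm6659 libraries had 99.2, 99.2 and 80.3 CPM, the daf-2 libraries 94.4, 107 and 86.5 CPM, and the N2 libraries 45.5, 43.4 and 50.7 CPM. The libraries of daf-2, both daf-16a mutants and tm6659 overlapped, those of mu86 and mg54 lay below them, and those of N2 were lowest, without overlap between these 3 levels.

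The ctl-1/ctl-2 locus rose in daf-2 by 1.04 ± 0.11 on the log2 scale against N2 (adjusted p = 8.46e-06), 2.06-fold. Against daf-2 it fell by 0.71 ± 0.11 in mu86 (adjusted p = 0.000388) and by 0.65 ± 0.11 in mg54 (adjusted p = 0.00104). Neither single-isoform loss was called, with -0.06 in the daf-16a mutants (95% interval -0.26 to 0.15) and -0.04 in tm6659 (95% interval -0.28 to 0.19). The excess of mg54 over the sum of these was -0.55 ± 0.15 (adjusted p = 0.199, and 0.0542 with the replicate block). Without the libraries numbered 2 the call was lost in mu86 (-0.56, adjusted p = 0.0723) as well as in mg54 (-0.55, adjusted p = 0.0811).

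The neighbouring gene ctl-3 was an order of magnitude less abundant and took another order across the genotypes. It had 4.21, 3.24 and 2.96 CPM in mu86, 3.40, 5.38 and 3.21 CPM in mg54, 10.4, 12.7 and 9.72 CPM in tm5030, and 10.1, 12.8 and 7.61 CPM in tm5032. The tm6659 libraries had 5.91, 5.56 and 4.32 CPM, the daf-2 libraries 11.7, 13.4 and 10.3 CPM, and the N2 libraries 4.48, 4.64 and 4.90 CPM. All 3 tm6659 libraries were below every library of daf-2 and of the daf-16a mutants, and overlapped N2 and mg54.

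Against N2, ctl-3 rose in daf-2 by 1.34 ± 0.23 (adjusted p = 0.000634), 2.53-fold. Against daf-2 it fell by 1.77 ± 0.23 in mu86 (adjusted p = 7.84e-05) and by 1.57 ± 0.23 in mg54 (adjusted p = 0.000278). In the daf-16a mutants the log2 fold change was -0.16 (95% interval -0.57 to 0.25, adjusted p = 0.999). In tm6659 it was -1.17 ± 0.23 with an adjusted p of 0.0546, just short of a call. It was called with the replicate block (adjusted p = 0.00238), DESeq2 (adjusted p = 0.00114), limma-voom (adjusted p = 0.0249), upper-quartile scaling (adjusted p = 0.0265) and a filter at a mean of 2 CPM (adjusted p = 0.0225). Relative log expression scaling, no filter, these genotypes alone and both FPKM scales gave no call. The same held without all libraries numbered 2 or those numbered 3. Nor was ctl-3 called by edgeR when any 1 of the 6 libraries was left out (adjusted p from 0.102 to 0.379).

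The daf-16a mutants exceeded tm6659 in ctl-3 by 1.00 ± 0.21 (adjusted p = 0.0128), with all 6 libraries higher. With sod-3 in the opposite direction, this made 2 of the 8 loci other than sod-5 called between the isoform mutants, where 2.44% of all genes were called. Among these 8 the replicate block added sod-2. The ctl-3 call was lost without tm6659 replicate 2 (adjusted p = 0.0545) or replicate 3 (adjusted p = 0.0841), without all libraries numbered 2 (0.89, adjusted p = 0.143) and without those numbered 3 (1.01, adjusted p = 0.055). The library numbered 3 had the least ctl-3 in 6 of the 7 genotypes.

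Ratios within a library do not depend on its scaling. The FPKM of sod-3 was 1.11% of that of sod-2 in mu86, 2.57% in mg54, 6.48% in tm5030, 5.81% in tm5032, 29.9% in tm6659 (range 23.7% to 38.2%), 20.9% in daf-2 (range 16.8% to 26.8%) and 1.17% in N2, as means of 3 libraries. Here tm5032 (range 2.80% to 10.2%) overlapped mg54 (range 1.95% to 3.48%), which it did not in CPM of sod-3. The FPKM of ctl-3 was 5.93% of that of its ctl-1/ctl-2 neighbours in mu86, 6.62% in mg54, 12.2% in tm5030, 11.0% in tm5032, 5.71% in tm6659 (range 5.33% to 6.25%), 12.4% in daf-2 (range 11.8% to 13.1%) and 10.2% in N2 (range 9.57% to 10.6%). In N2 both catalase loci were low and their ratio lay below that of daf-2 and above that of tm6659 without overlap, whereas in tm6659 ctl-3 was low beside a ctl-1/ctl-2 level that overlapped that of daf-2. Set against prdx-2, sod-2 stood at 20.3% of its FPKM in tm6659 (range 20.1% to 20.4%) and 27.3% in daf-2 (range 26.3% to 29.0%), and ctl-1/ctl-2 at 5.59% in tm6659 and 6.07% in daf-2.

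**Figure D3:**
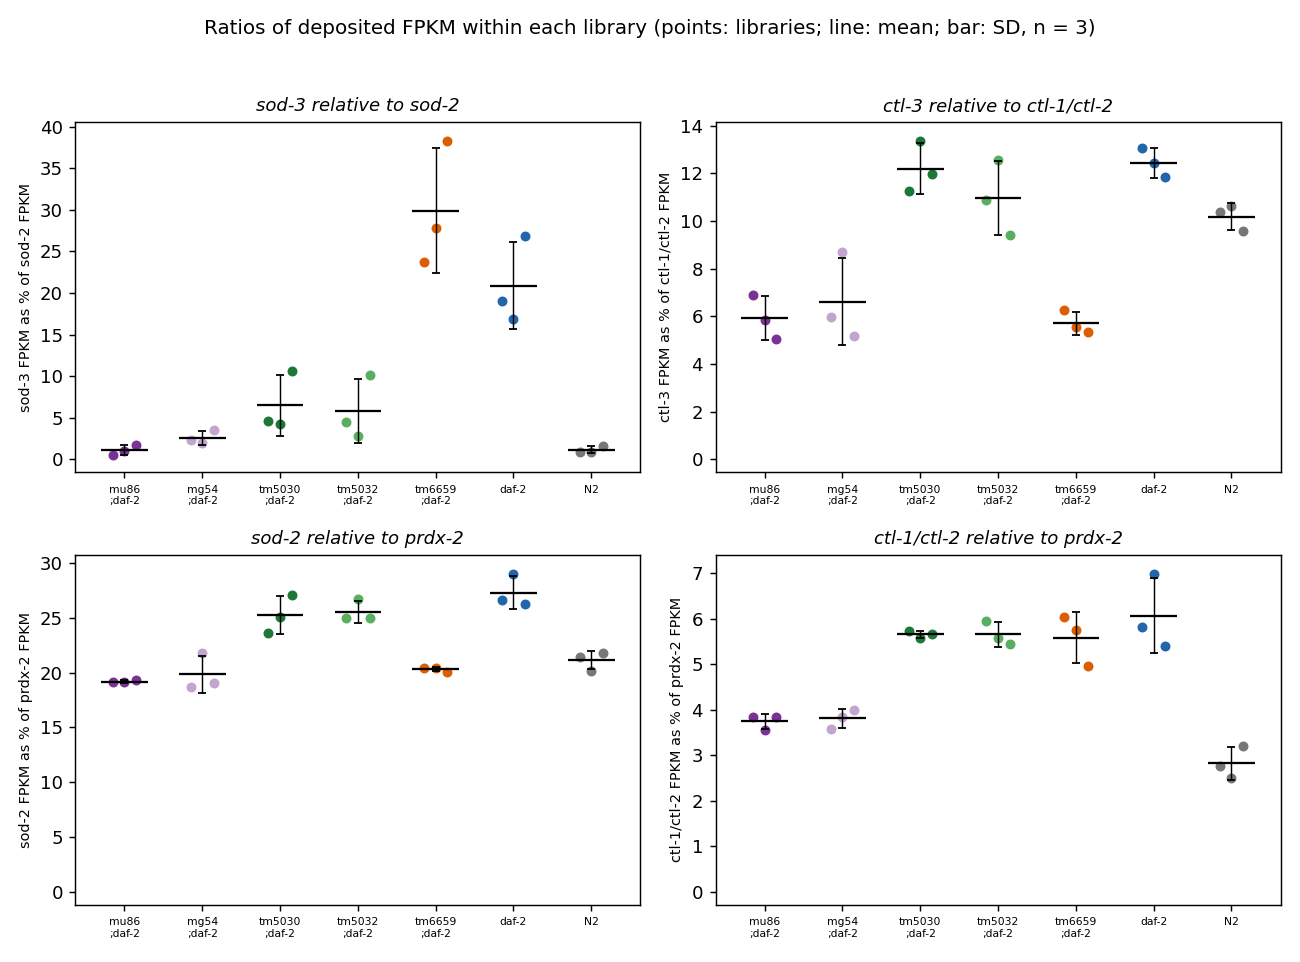
FPKM ratios within each library, in percent, by genotype. Points are libraries, lines means and bars SD (n = 3). The ctl-3 share of ctl-1/ctl-2 FPKM lies between 5.33% and 6.25% in tm6659 and between 11.8% and 13.1% in daf-2, while the sod-3 share of sod-2 FPKM overlaps between these genotypes.

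The cytosolic peroxiredoxin prdx-2 (chromosome II, 5378195 to 5379631, plus strand) was called in none of the 10 comparisons, nor with the replicate block. Its means were 468 ± 10.8 CPM in mu86, 478 ± 14.4 CPM in mg54, 478 ± 37.9 CPM in tm5030, 497 ± 67.4 CPM in tm5032, 508 ± 38.2 CPM in tm6659, 485 ± 25.3 CPM in daf-2 and 506 ± 42.9 CPM in N2 (SD, n = 3 each). The log2 fold change was -0.06 (95% interval -0.25 to 0.13) in daf-2 against N2 and -0.05 (95% interval -0.24 to 0.14) in mu86 against daf-2, so a change of the size of that in sod-3 or ctl-3 lies outside both intervals. The prdx-3 locus (prdx-3 itself on chromosome III, 4407444 to 4408437, plus strand), which includes the mitochondrial peroxiredoxin, had 608 ± 47.4 CPM in mu86, 649 ± 7.95 CPM in daf-2 and 685 ± 30.8 CPM in N2. Its log2 fold change was -0.08 (95% interval -0.24 to 0.08) in daf-2 against N2 and -0.09 (95% interval -0.25 to 0.07) in mu86 against daf-2, and the means of the other 4 mutants lay between 611 and 642 CPM.

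The mu86 libraries were also set against N2, that is, animals with the null daf-16 allele and reduced receptor function against wild-type. By edgeR none of the 9 loci was called, where 1.52% of all genes were. An unadjusted p under 0.05 was met by 3 (sod-2, ctl-1/ctl-2 and prdx-3), a threshold whose share over all genes was not counted. DESeq2 called 2 of the 9 lower (sod-2 and prdx-3), where it called 1063 of 12091 genes, 19.5% of them higher. Limma-voom called 0 of the 9. Values stood apart for sod-2 (-0.24 ± 0.09, all mu86 libraries lower), ctl-1/ctl-2 (0.33 ± 0.11, all higher), ctl-3 (-0.43 ± 0.23, all lower) and prdx-3 (-0.17 ± 0.08, all lower). With the replicate block these 4 were called (adjusted p = 0.00832, 0.0143, 0.0487 and 0.00924, in that order), in a fit that called 48.2% of all genes. For sod-3 the log2 fold change was -0.38 (95% interval -1.20 to 0.43, adjusted p = 0.455). The daf-16a alleles tm5030 and tm5032 had 0 of the 9 loci called between them by edgeR, DESeq2 or limma-voom, where edgeR called 0.0248% of all genes, and 0 with an unadjusted p under 0.05. Their sod-3 difference was 0.10 (95% interval -0.67 to 0.87) and their ctl-3 difference 0.10 (95% interval -0.38 to 0.58).

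A span of at least 1 on the log2 scale over the 7 genotype means was reached by 4 loci, and the genes most like each were taken from 3028 candidates by Pearson's r over those 7 means, as a description. Because r does not compare the size of the changes, the log2 span of each gene is given. Nearest to sod-3 (span 4.82) were acs-17 (r = 0.996, span 1.12), nhr-60 (r = 0.992, span 0.746) and hil-1 (r = 0.989, span 2.58). Nearest to ctl-1/ctl-2 (span 1.04) were vhp-1 (r = 0.993, span 0.677), lec-1 (r = 0.992, span 0.559) and sms-3 (r = 0.991, span 0.611). Nearest to ctl-3 (span 1.76) were mtch-1 (r = 0.989, span 0.746), sip-1 (r = 0.978, span 1.74) and sod-2 (r = 0.974, span 0.541), another member. The genes nearest to sod-5 (unc-38, r = 0.990, cec-1, r = 0.984, and emb-8, r = 0.982) rest on its few fragments. Their spans were 1.39, 0.144 and 0.189 in this order, beside 2.05 for sod-5.

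Further genes of redox defence were counted from 8 companion lists of 61 genes, in 56 tested loci. In daf-2 against N2, 4 of these loci were called higher and 6 lower, which is 17.9% beside 16.7% of all genes. In mu86 against daf-2, 2 were called higher and 5 lower, 12.5% beside 10.3% of all genes. In mg54 against daf-2, 4 were called higher and 4 lower, 14.3% beside 9.35% of all genes. In the daf-16a mutants 1 was called higher than in daf-2 (1.79% beside 1.87%), and in tm6659 none was called. The companions were thus called in both directions, and in daf-2 and mu86 at shares near those of all genes.

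Glutathione peroxidases reduce peroxides with glutathione. Of 10 tested loci in the list of these enzymes and of glutathione supply, 3 were called higher in daf-2 against N2, where 10.9% of all genes were, and 3 lower in mu86 against daf-2, where 6.16% of all genes were. The level of gpx-6 was 0.880 ± 0.149 CPM in mu86, 0.860 ± 0.334 CPM in mg54, 1.28 ± 0.299 CPM in tm5030, 1.23 ± 0.184 CPM in tm5032, 2.67 ± 0.980 CPM in tm6659, 2.48 ± 0.910 CPM in daf-2 and 0.826 ± 0.192 CPM in N2 (SD, n = 3 each). It rose in daf-2 by 1.58 ± 0.36 against N2 (adjusted p = 0.00514) and fell by 1.49 ± 0.36 in mu86 (adjusted p = 0.0108), with -0.98 ± 0.29 in the daf-16a mutants (adjusted p = 0.117) and 0.11 ± 0.34 in tm6659 (adjusted p = 1) against daf-2. The level of gpx-7 was 7.97 ± 1.18 CPM in mu86, 11.6 ± 2.74 CPM in tm5030, 12.3 ± 1.82 CPM in tm5032, 12.4 ± 2.90 CPM in tm6659, 12.9 ± 0.998 CPM in daf-2 and 6.33 ± 1.04 CPM in N2. It rose in daf-2 by 1.03 ± 0.21 against N2 (adjusted p = 0.0023), fell by 0.69 ± 0.21 in mu86 (adjusted p = 0.0399), and was called in neither the daf-16a mutants nor tm6659. The shared locus of gpx-3 and gpx-5 rose by 0.64 ± 0.18 in daf-2 against N2 (adjusted p = 0.0217), and the gpx-2 locus, which it shares with another gene, fell by 0.40 ± 0.09 in mu86 against daf-2 (adjusted p = 0.0052).

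The thioredoxin system, the respiratory chain, peroxisome import and the copper chaperone held the other calls. The locus of msra-1, a methionine sulfoxide reductase, with its neighbours F43E2.11 and F43E2.6 had 466 ± 115 CPM in mu86, 439 ± 123 CPM in mg54, 306 ± 124 CPM in tm5030, 314 ± 92.3 CPM in tm5032, 95.9 ± 35.3 CPM in tm6659, 111 ± 31.01 CPM in daf-2 and 255 ± 53.3 CPM in N2. It fell by 1.20 ± 0.35 in daf-2 against N2 (adjusted p = 0.0257) and rose by 2.07 ± 0.36 in mu86 (adjusted p = 0.000911) and 1.47 ± 0.32 in the daf-16a mutants (adjusted p = 0.0218) against daf-2. The locus of mev-1, a succinate dehydrogenase subunit, with ced-9 and ttr-15 rose by 0.68 ± 0.10 in daf-2 against N2 (adjusted p = 0.000221) and fell by 0.61 ± 0.10 in mu86 (adjusted p = 0.000766). The mitochondrial thioredoxin reductase gene trxr-2 fell by 0.39 ± 0.11 in mu86 against daf-2 (adjusted p = 0.0354). The locus of prx-10 with atp-2, mrps-26 and prmt-5 rose by 0.20 ± 0.05 in that comparison (adjusted p = 0.00911). In daf-2 against N2 the copper chaperone gene cuc-1 fell by 0.46 ± 0.13 (adjusted p = 0.024), and the loci of clk-1 (by 0.34 ± 0.10, adjusted p = 0.0284), prx-10 (by 0.23 ± 0.05, adjusted p = 0.00228), cyc-1 (by 0.19 ± 0.06, adjusted p = 0.0307) and nuo-1 (by 0.17 ± 0.05, adjusted p = 0.0243) fell as well, each shared with other genes. The glutaredoxins, the haem peroxidases and the regulators of oxidative stress genes, skn-1 among them, held no locus called in these comparisons.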

How the data were processed

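Per the labels' protocols, poly(A) RNA of whole day 1 adults was made into libraries and sequenced as paired ends. Per the submitters' processing notes, the tools were CASAVA 1.8.2, TopHat2 2.0.9 and Cufflinks 2.1.1. The sources used here give no genome build, annotation or strand setting. The authors' deposited values are expected counts of fragments per locus, estimated counts of which 86.3% are whole within 1e-09, and FPKM from the authors. FPKM served for levels between genes, ratios within a library and 1 alternative. All columns were read (0 left out), while 3 lines that are not loci and 300 unnamed loci were dropped. The 10 genes and all lists were chosen with earlier results of these data known.

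Counts were rounded and fitted with edgeR 4.0.16 (R 4.3.3) in 1 quasi-likelihood model of 7 genotypes and 21 libraries, with TMM scaling and filterByExpr. Tests were 2-sided, with Benjamini-Hochberg adjustment over 12091 loci in each of 10 comparisons, and a call means an adjusted p under 0.05. CPM are scaled by TMM, and log2 means used a prior count of 2. Scripts were tested on simulated data. Alternatives were other scalings and filters, DESeq2 1.42.0, limma-voom (limma 3.58.1), limma on log2 FPKM with 1 or 0.1 added, the genotypes of a comparison alone, each library left out, and the replicate number as a block. The genotypes share replicate numbers whose meaning the labels leave unstated. The correlation of same-numbered libraries' deviations from their genotype means ranged from -0.31 to 0.89 over 63 pairs, and every pair was over 0.1 in each comparison other than daf-2 against N2 (lowest -0.11) and mu86 against daf-2 (lowest -0.31). Genes named are the 10 members, up to 4 called genes of each companion list by smallest p in daf-2 against N2 or mu86 against daf-2, and the 3 genes with a mean of at least 2 CPM most like a member. Of the genes in the lists, 106 matched by symbol, 11 by sequence name and 2 not at all. Names and positions came from Ensembl release 115 (WBcel235). Count ratios of sod-5 have exact 95% intervals that cover counting error only.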

Additional observations from a re-analysis of the deposited data

How the results depend on the processing

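The number of loci called, of 9 with sod-5 counted, was 6 in daf-2 against N2 and 1 or 2 on log2 FPKM with 1 or 0.1 added. It was 6 in mu86 against daf-2 and 2 or 3 on these FPKM scales, and 5 in mg54 against daf-2, 1 on both FPKM scales, and 3 in a fit of these genotypes alone or without the libraries numbered 2 or those numbered 3. In the daf-16a mutants against daf-2 it was 2, and 1 under relative log expression or upper-quartile scaling, with no filter, with a filter at a mean of 2 CPM, on both FPKM scales and without the libraries numbered 3, and 0 in a fit of these genotypes alone and without the libraries numbered 2. In tm6659 against daf-2 it was 0, and 1 under upper-quartile scaling, the filter at 2 CPM, DESeq2 and limma-voom, and 2 with the replicate block. In the daf-16a mutants against tm6659 it was 2, and 4 with the replicate block, 1 in a fit of these genotypes alone and without the libraries numbered 3, and 0 without those numbered 2. From 0, the count moved to 1 with the replicate block in mg54 against mu86, to 2 with DESeq2 and 4 with the replicate block in mu86 against N2, and to 1 with DESeq2, the replicate block or without the libraries numbered 3 in the test of additivity. Leaving out 1 library at a time gave 4 to 5 calls in daf-2 against N2, 5 to 6 in mu86 and 4 to 5 in mg54 against daf-2, 1 in the daf-16a mutants against daf-2, and 1 to 3 in the daf-16a mutants against tm6659. Fits without all libraries numbered 2 or 3 were chosen after seeing the data.

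Of the 21 values called, 4 changed sign among 386 alternatives, those of sod-1 (-0.28 and -0.28) and sod-2 (-0.32 and -0.32) in daf-2 against N2 on FPKM with 1 and 0.1 added, where the median of all genes was -0.37 and -0.51. In 77 alternatives a call was lost, and in 24 a call was gained among the 69 values not called. Genes called over all loci numbered 2018 in daf-2 against N2, and 5330 with the replicate block, 1102 and 1125 on the FPKM scales and 1239 without the libraries numbered 2. They numbered 1244 in mu86 (2631 with the block, 683 with these genotypes alone, 776 and 798 on FPKM, 611 without the libraries numbered 2) and 1130 in mg54 (2300, 469, 708, 734 and 533 in the same order). In the daf-16a mutants against daf-2 they numbered 226 (695 with the block, 437 with DESeq2, 144 with the filter at 2 CPM, 77 with these genotypes alone, 56 without the libraries numbered 2), in tm6659 21 (85 with the block, 59 with DESeq2, 32 with upper-quartile scaling and with the filter at 2 CPM, 11 with these genotypes alone, 7 on both FPKM scales and without the libraries numbered 2, 12 without those numbered 3), and in the daf-16a mutants against tm6659 295 (950 with the block, 573 with DESeq2, 109 with these genotypes alone, 51 and 195 without the libraries numbered 2 and 3). In mu86 against N2 they numbered 184 (5827 with the block, 1063 with DESeq2, 109 with no filter, 2 with these genotypes alone, 29 and 23 on FPKM, 10 and 118 without the libraries numbered 2 and 3), and in the test of additivity 53 (154 with the block, 26 and 32 on FPKM, 13 without the libraries numbered 2). In mg54 against mu86 they numbered 4, and in tm5030 against tm5032 3, with at most 10 under any alternative.

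The share of calls that were higher was 65.0% in daf-2 against N2, and 54.8% under relative log expression, 50.4% under upper-quartile scaling and 38.3% on FPKM with 1 added. In mu86 against daf-2 it was 40.1%, and 52.3% under upper-quartile scaling, in mg54 40.4%, and 51.8% on FPKM with 0.1 added, in the daf-16a mutants 41.6%, and 53.9% and 65.2% on FPKM, and in tm6659 23.8%, and 40.6% under upper-quartile scaling and 42.9% on FPKM with 0.1 added. In mu86 against N2 it was 88.6%, and 19.5% with DESeq2 and 62.1% on FPKM with 1 added. The causes of these changes were not tested. Depth limits sod-5, with at most 12 fragments in a library.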

Other observations

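A further peroxiredoxin gene, prdx-6, is not among the 10 genes and was looked up after the values of the others had been seen. It had 38.2 CPM in daf-2 and 44.0 CPM in N2 as means of 3 libraries, and was called in none of the 10 comparisons (log2 fold change -0.20 ± 0.12 in daf-2 against N2, adjusted p = 0.256 in edgeR's test).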
